A study of Mus musculus with 6 samples.

Results

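MHC class I and immunoproteasome genes were followed here as 10 named genes, H2-K1, H2-D1, B2m, Tap1, Tap2, Tapbp, Nlrc5, Psmb8, Psmb9 and Psmb10. They were picked by symbol, and all 10 had a row among the 15726 genes of the deposited table. The cells were B16F10, an established melanoma line derived from a C57BL/6 mouse and grown in culture. Of the 6 poly(A) RNA libraries, 3 were made from rPPAA18C6@Dox-treated cells (50 μg/mL) and 3 from PBS controls, with 8 h of exposure in both groups. The series title places the preparation, which is known here by its code name, among potassium ionophore nanoplatforms that respond to reactive oxygen species. Nothing in the labels says whether the 3 libraries of a group were separate cultures, so the spread that the p-values are set against may be technical. Table columns lettered P and numbered 1 to 3 were read as the rPPAA18C6@Dox libraries, and the direction of each difference depends on this reading.

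MHC class I molecules show peptides from inside the cell to CD8+ T cells. The peptides are cut by the proteasome, whose immunoproteasome form carries the catalytic subunits encoded by Psmb8, Psmb9 and Psmb10 in place of those encoded by Psmb5, Psmb6 and Psmb7. The TAP1-TAP2 transporter moves the peptides into the endoplasmic reticulum, where tapasin (Tapbp) helps to load them onto a heavy chain (H2-K1 or H2-D1) paired with beta-2 microglobulin (B2m). NLRC5 is the transcriptional coactivator of this gene set, and interferon gamma induces most of it. B16 melanoma is known as a line with little class I at the cell surface unless interferon gamma is added.

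The sequences before the starts of 4 of these genes, and between the starts of Tap1 and Psmb9, are shown because these genes stand at the top, in the middle and at the bottom of the range of levels given below. RefSeq promoters (build GRCm38.p6) were matched by symbol for 8 of the 10 genes. Capitals mark the letters GAAANNGAAA (core of the interferon-stimulated response element), TTCNNNGAA (STAT site), TGACG (core of the X2 element, part of the module on which NLRC5 acts) and CCAAT (NF-Y box), searched on both strands. Each sequence reads 5′ to 3′ on the strand of its gene, that of Tap1 for the shared one.
B2m, chr2:122147437-122147686, plus strand: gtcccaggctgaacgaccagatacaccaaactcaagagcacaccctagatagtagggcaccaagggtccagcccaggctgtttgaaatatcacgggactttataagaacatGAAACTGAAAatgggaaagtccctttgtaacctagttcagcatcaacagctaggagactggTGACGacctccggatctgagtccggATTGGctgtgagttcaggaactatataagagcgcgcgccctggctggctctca
H2-D1, chr17:35262844-35263093, plus strand: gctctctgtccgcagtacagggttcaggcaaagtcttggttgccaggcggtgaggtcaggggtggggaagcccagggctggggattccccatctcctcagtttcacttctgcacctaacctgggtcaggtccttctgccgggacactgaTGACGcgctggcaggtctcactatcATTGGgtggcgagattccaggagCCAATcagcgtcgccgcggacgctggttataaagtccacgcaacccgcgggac
H2-K1, chr17:34000348-34000597, minus strand: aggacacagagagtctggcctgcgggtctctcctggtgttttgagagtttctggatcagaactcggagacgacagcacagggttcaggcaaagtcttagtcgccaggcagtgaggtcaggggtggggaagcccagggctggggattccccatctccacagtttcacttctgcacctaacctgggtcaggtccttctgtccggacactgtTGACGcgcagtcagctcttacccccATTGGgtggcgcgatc
Psmb8, chr17:34197945-34198194, plus strand: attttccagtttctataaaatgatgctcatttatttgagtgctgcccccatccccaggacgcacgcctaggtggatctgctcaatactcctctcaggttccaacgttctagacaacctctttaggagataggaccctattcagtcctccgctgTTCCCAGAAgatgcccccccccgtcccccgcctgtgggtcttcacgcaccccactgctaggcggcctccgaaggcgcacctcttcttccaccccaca
Tap1 to Psmb9, chr17:34187331-34187555, plus strand: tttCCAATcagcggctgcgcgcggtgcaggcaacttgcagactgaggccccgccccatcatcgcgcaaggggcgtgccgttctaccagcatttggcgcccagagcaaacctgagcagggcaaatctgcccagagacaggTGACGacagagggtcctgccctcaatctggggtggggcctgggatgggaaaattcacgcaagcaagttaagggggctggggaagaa

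The B2m, H2-D1, H2-K1 and Tap1-Psmb9 sequences each held TGACG and CCAAT, which 17.9% and 34.5% of 27025 promoters also held in the 250 bases before the start. GAAANNGAAA was found before B2m, against 3.04% of promoters, and TTCNNNGAA before Psmb8, against 7.18% of promoters. Of the other matched promoters, Psmb8 and Psmb10 held neither TGACG nor CCAAT, and Tapbp held CCAAT without TGACG. No marked motifs overlapped. The stretches before H2-K1 and H2-D1 shared a run of 47 bases, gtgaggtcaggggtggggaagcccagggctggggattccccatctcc. Tap1 and Psmb9 are read in opposite directions from starts with 225 bases between them. These matches describe the letters in these windows and are not evidence of binding. Only these exact letters were searched, so a window without a match may still hold a variant of the element.

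The level of the pathway in B16F10 was uneven rather than low throughout. Levels are given in FPKM, the reads of a gene per length of the gene and depth of the library, so they can be set side by side between genes. B2m stood far above the rest at 470 ± 8.80 FPKM in rPPAA18C6@Dox cells and 456 ± 0.689 FPKM in PBS cells (SD, n = 3 each), higher than 99.3% of the listed genes in both groups. H2-D1 followed at 30.6 ± 0.531 FPKM in rPPAA18C6@Dox cells and 29.8 ± 0.851 FPKM in PBS cells, above 85.6% and 85.1% of genes. H2-K1, the other classical heavy chain, was near the middle gene of the table, at 4.97 ± 0.150 FPKM in rPPAA18C6@Dox cells and 4.80 ± 0.225 FPKM in PBS cells. The median gene stood at 4.84 FPKM in rPPAA18C6@Dox cells and 4.86 FPKM in PBS cells.

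Psmb10, Tapbp and Tap1 lay above that median, Nlrc5 and Tap2 below it, and Psmb9 and Psmb8 had group means under 1 FPKM. The ranges over the 6 libraries did not touch for any neighbours in the order B2m, H2-D1, Psmb10, Tapbp, Tap1, H2-K1, Nlrc5, Tap2, Psmb9 and Psmb8, except Nlrc5 and Tap2. Those 2 genes overlapped, and Nlrc5 was the higher in 3 of 6 libraries. In each library B2m was 12.7 to 13.7 times the sum of H2-K1 and H2-D1, and H2-D1 was 5.81 to 6.75 times H2-K1. Levels between genes also depend on the gene length that the authors used. The length implied by the values was 866 bases for B2m, against 860 in GENCODE vM21, but 1387 bases for Tapbp, whose longest coding transcript there has 2898. It was 2201 bases for H2-K1 (longest coding transcript 1619) and 1751 bases for H2-D1 (2102). With those transcript lengths the ratio of H2-D1 to H2-K1 would be lower, and the order of neighbours could differ.

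**Figure D1:**
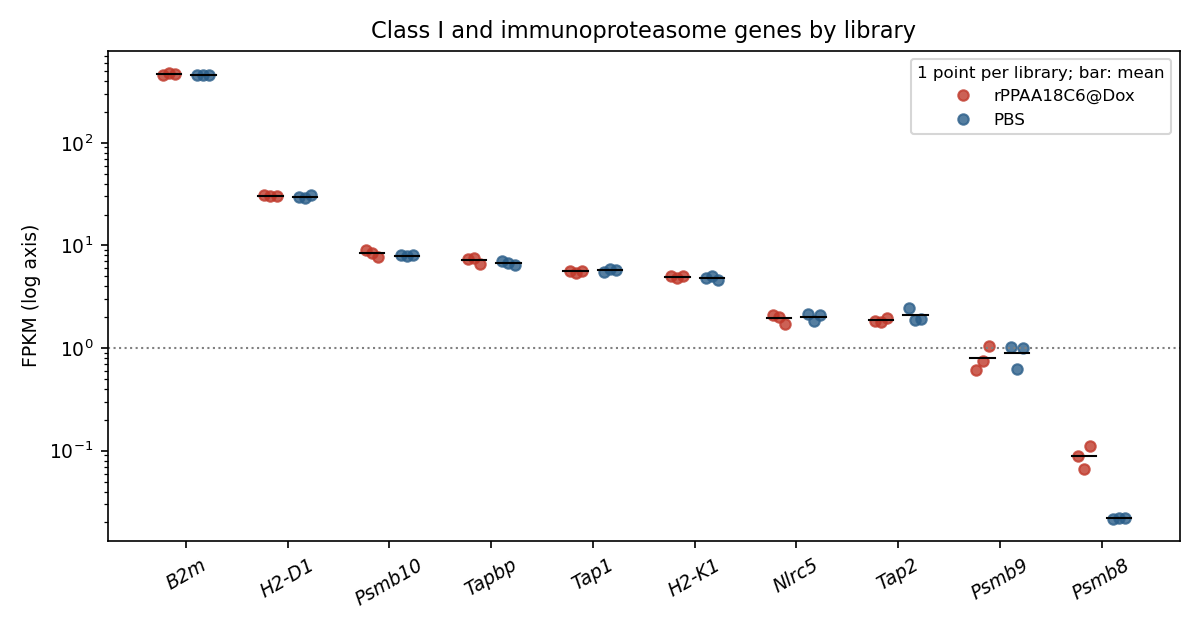
Level of each of the 10 genes in every library, in FPKM on a log axis, with rPPAA18C6@Dox libraries left of PBS libraries and a bar at each group mean. The dotted line is the filter of 1 FPKM, and Psmb9 and Psmb8 lie under it by their group means while B2m stands at 455 FPKM or more.

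Between the groups, none of the 8 genes that passed the filter on low values passed the test for a change. Genes were tested where the mean reached 1 FPKM in either group, with limma on log2(FPKM + 1) and Benjamini-Hochberg adjustment over 10680 genes. Of the 8 genes, 0 were called higher and 0 lower at an adjusted p under 0.05, where the same fit called 1060 of all tested genes (9.93%), 498 higher (4.66%) and 562 lower (5.26%). At an unadjusted p under 0.05 there were also 0 of 8, against 26.2% of all tested genes, and limma's voom on reads recovered from the values called 0 of 8, against 15.3%. The adjusted p of the 8 genes was between 0.232 (B2m) and 0.746 (Tap1). The median log2 fold change of the 8 was 0.04, against -0.01 over all tested genes, and 5 estimates were above 0 and 3 below. The groups did not overlap for 1 of the 8, against 31.3% of all tested genes in either direction.

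The intervals say how large a change these libraries leave room for. The 95% intervals of the 8 genes reached from -17.0% (Tap2) to 14.9% (Tapbp) on the FPKM + 1 scale, which understates changes of genes near 1 FPKM. The median size of an estimate was 0.04 on the log2 scale for the 8 genes and 0.05 for all tested genes, with a median standard error (SE) of 0.05 and 0.04. In bulk RNA, fewer cells expressing a gene and less RNA per cell cannot be told apart.

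**Figure D2:**
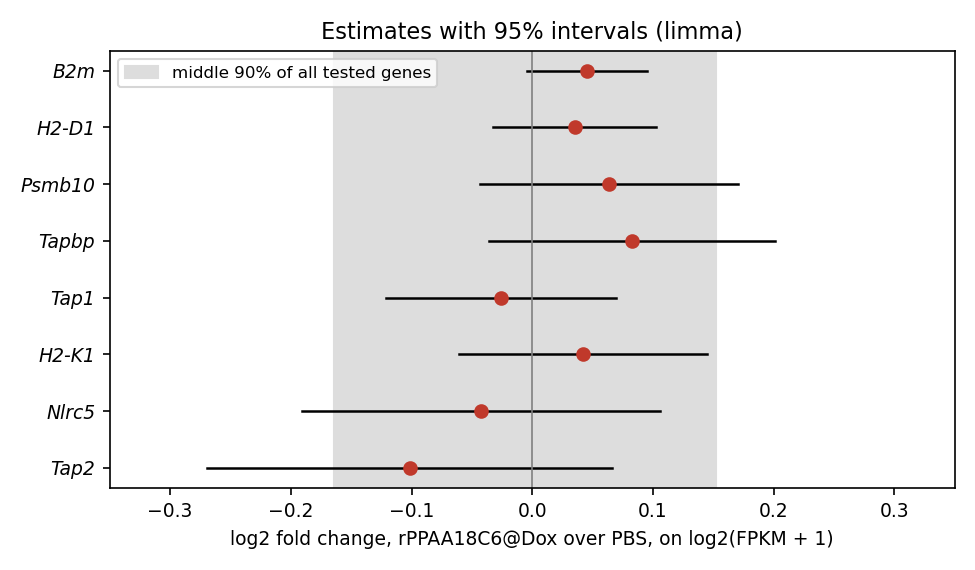
Estimated log2 fold change (rPPAA18C6@Dox over PBS, on log2(FPKM + 1)) of the 8 tested genes, with 95% intervals from limma as lines. All 8 intervals cross 0, and all 8 points lie within the shaded band from -0.16 to 0.15 that holds the middle 90% of all tested genes.

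B2m, the light chain shared by all class I molecules, had 461, 478 and 472 FPKM in rPPAA18C6@Dox libraries, against 456, 455 and 456 FPKM in PBS libraries. Every rPPAA18C6@Dox library was above every PBS library, as in 12.6% of all tested genes, and the gap was small. The estimate was a log2 fold change of 0.05 (SE 0.0223, limma adjusted p = 0.232), or 3.20% with an interval from -0.298% to 6.82%, on 14356 to 15213 reads per library. Its sign turned with quantile normalization, to -0.01. In the authors' deposited table B2m had p = 0.0155, by a test that the header does not name, and 17.5% of all 15726 genes there had p under 0.05.

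The heavy chains overlapped between groups. H2-D1 had 31.2, 30.2 and 30.4 FPKM in rPPAA18C6@Dox libraries, against 29.7, 29.1 and 30.7 FPKM in PBS libraries (log2 fold change 0.04, SE 0.0302, limma adjusted p = 0.504). PBS replicate 3 lay above rPPAA18C6@Dox replicates 2 and 3. H2-K1 had 5.02, 4.80 and 5.09 FPKM in rPPAA18C6@Dox libraries, against 4.83, 5.00 and 4.56 FPKM in PBS libraries (0.04, SE 0.0460, adjusted p = 0.611). The classical heavy chains resemble each other and the nonclassical ones: 14.3% of the 50-base words of the H2-D1 transcript and 8.79% of those of H2-K1 also occurred in transcripts of other genes. Of 100-base words these shares were 4.64% for H2-D1 and 0% for H2-K1. How the authors assigned reads that fit several genes is not given in the sources used here, so the split between these genes is uncertain to that extent.

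Among the genes of peptide transport and loading, Tap1, a subunit of the transporter, had 5.69, 5.39 and 5.69 FPKM in rPPAA18C6@Dox libraries, against 5.49, 5.84 and 5.79 FPKM in PBS libraries. The groups overlapped (log2 fold change -0.03, SE 0.0426, limma adjusted p = 0.746). Tap2, its partner subunit, had 1.82, 1.80 and 1.97 FPKM in rPPAA18C6@Dox libraries, against 2.45, 1.88 and 1.90 FPKM in PBS libraries (-0.10, SE 0.0751, adjusted p = 0.433). PBS replicate 1 was the highest library for Tap2, with 228 reads against 166 to 181 in the other five, and without it the estimate was -0.02 (adjusted p = 0.901). Tap1 was 2.24 to 3.13 times Tap2 in each library, lowest in PBS replicate 1. Tapbp had 7.37, 7.61 and 6.63 FPKM in rPPAA18C6@Dox libraries, against 7.08, 6.69 and 6.46 FPKM in PBS libraries (0.08, SE 0.0530, adjusted p = 0.361), and rPPAA18C6@Dox replicate 3 lay within the PBS range.

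The immunoproteasome subunits were present at a small share of their constitutive counterparts. Psmb8, the subunit that replaces Psmb5, had 4, 3 and 5 reads in rPPAA18C6@Dox libraries, against 1, 1 and 1 in PBS libraries, or 0.0886, 0.0662 and 0.111 FPKM in rPPAA18C6@Dox libraries, against 0.0219, 0.0220 and 0.0223 FPKM in PBS libraries. The groups did not overlap, as 10.5% of all listed genes did not in this direction. Summed, these were 12 and 3 reads, a depth-corrected ratio of 4.01 with an exact 95% interval from 1.08 to 22.1 that covers counting error only. Psmb8 was below the filter. With no filter it had a limma adjusted p of 0.0701. In the authors' deposited table Psmb8 had p = 0.124, by the test that the header does not name. The interval from counting error was computed for Psmb8 alone, and Psmb9 was given none.

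Psmb9, which replaces Psmb6, was also below the filter, at 0.610, 0.754 and 1.05 FPKM in rPPAA18C6@Dox libraries, against 1.04, 0.631 and 1.01 FPKM in PBS libraries. The groups overlapped fully on 25 to 43 reads per library, and the limma adjusted p was 0.803 with no filter. Psmb10, which replaces Psmb7, had 8.94, 8.48 and 7.76 FPKM in rPPAA18C6@Dox libraries, against 8.02, 7.92 and 7.98 FPKM in PBS libraries (log2 fold change 0.06, SE 0.0478, adjusted p = 0.442). Its rPPAA18C6@Dox libraries spread on both sides of the PBS libraries, with an SD of 0.595 FPKM against 0.0535 FPKM.

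None of the constitutive counterparts passed the test. Psmb5 had 160, 152 and 171 FPKM in rPPAA18C6@Dox libraries, against 168, 156 and 159 FPKM in PBS libraries (log2 fold change -0.0018, SE 0.0414, limma adjusted p = 0.985). Psmb6 was at 93.0 to 106 FPKM in rPPAA18C6@Dox libraries, against 94.1 to 99.3 FPKM in PBS libraries (0.02, adjusted p = 0.775). Psmb7 was at 189 to 201 FPKM in rPPAA18C6@Dox libraries, against 190 to 195 FPKM in PBS libraries (0.02, adjusted p = 0.643). The signs of Psmb5 and Psmb6 turned when single libraries were left out.

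As a ratio within a library, Psmb8 was 0.0546 ± 0.0107% of Psmb5 in rPPAA18C6@Dox cells and 0.0137 ± 0.000595% in PBS cells (SD, n = 3 each), on the few reads given above. Psmb9 was 0.809 ± 0.171% of Psmb6 in rPPAA18C6@Dox cells and 0.921 ± 0.235% in PBS cells. Psmb10 was 4.31 ± 0.438% of Psmb7 in rPPAA18C6@Dox cells and 4.15 ± 0.0428% in PBS cells. Exact two-sided permutation tests of the log2 ratios gave p = 0.1, 0.6 and 0.7 for the Psmb8, Psmb9 and Psmb10 ratios (0.3, 0.7 and 0.7 adjusted over the 3), where 0.1 is the smallest p that 3 libraries against 3 allow. In every library the share was lowest for Psmb8 and highest for Psmb10.

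**Figure D3:**
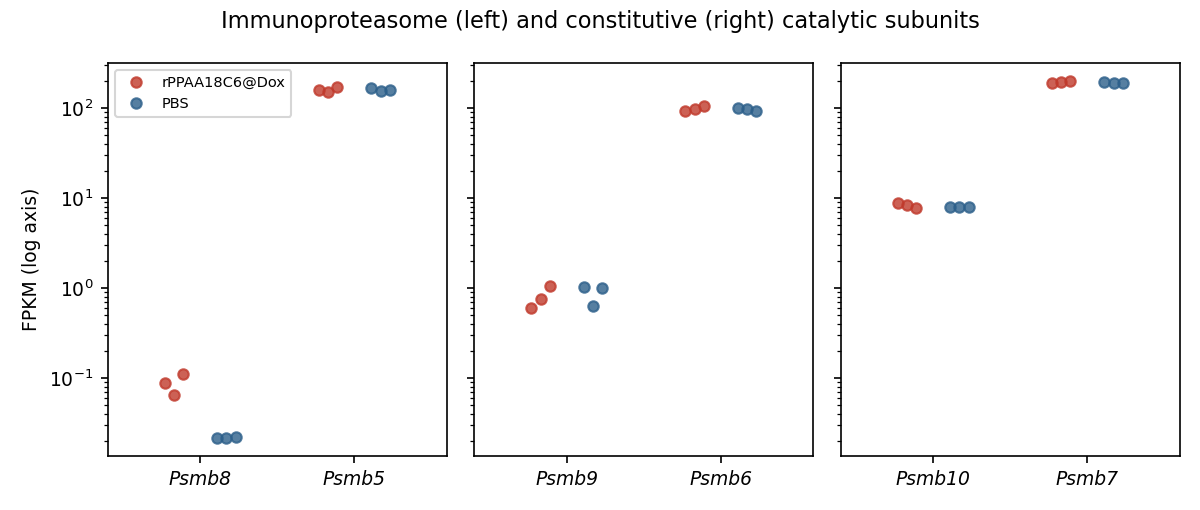
FPKM on a log axis of each immunoproteasome catalytic subunit and the constitutive subunit it replaces, 1 point per library, with rPPAA18C6@Dox libraries left of PBS libraries. The gap within a panel is widest for Psmb8 and Psmb5 and narrowest for Psmb10 and Psmb7.

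Tap1 and Psmb9 show different levels on the sides of their shared start region printed above: Tap1 was 5.30 to 9.33 times Psmb9 in each library. In GENCODE vM21 exons of Tap1 and Psmb9 share 212 bases on opposite strands. Tapbp shares 149 exon bases with Zbtb22 on the same strand and 904 with Gm19412 on the other. Psmb8 shares 498 and Tap2 165 with the antisense gene Gm20496, Tap2 533 with Gm15821, and Nlrc5 78 with 9330175E14Rik, all on the other strand. Of the constitutive counterparts, Psmb7 shares 405 with Nek6 on the other strand and Psmb5 109 with Mir686 on the same strand. The library kit keeps strand, but whether counting used it is not given in the sources used here, so reads of these pairs may be mixed. H2-K1, H2-D1, B2m and Psmb10 shared no exon with another annotated gene.

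Nlrc5, the coactivator, had 2.08, 2.02 and 1.72 FPKM in rPPAA18C6@Dox libraries, against 2.13, 1.86 and 2.11 FPKM in PBS libraries. The groups overlapped (log2 fold change -0.04, SE 0.0666, limma adjusted p = 0.734), on 504 to 629 reads per library, and without rPPAA18C6@Dox replicate 3, the lowest library, the estimate was 0.01. Of 16 tested regulators of class I transcription (of 18 listed), 0 rose and 1 fell, where 4.66% of all tested genes rose and 5.26% fell. At an unadjusted p under 0.05 there were 6 of 16, against 26.2% of all tested genes. Of the 16 estimates 14 were below 0, against 56.5% of those of all tested genes, with a median log2 fold change of -0.06 against -0.01. The gene that fell was Nfkb1, a subunit of NF-κB, with 11.7, 11.5 and 11.1 FPKM in rPPAA18C6@Dox libraries, against 13.7, 13.0 and 13.3 FPKM in PBS libraries (-0.21, SE 0.0362, adjusted p = 0.00714).

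A partner of NLRC5 and an interferon-induced activator lay close to the threshold. Rfx5, a DNA-binding subunit of the complex that recruits NLRC5, had 2.10, 2.07 and 2.18 FPKM in rPPAA18C6@Dox libraries, against 2.43, 2.74 and 2.51 FPKM in PBS libraries. Every rPPAA18C6@Dox library was below every PBS library, as in 18.7% of all tested genes. The call depended on the fit. In the main limma fit the log2 fold change was -0.19 (SE 0.0543, adjusted p = 0.0526). Rfx5 passed with voom (adjusted p = 0.00161) and with limma without the trend (adjusted p = 0.0314). With any 1 library left out it did not pass (limma adjusted p 0.0684 to 0.166). Nor did it pass with quantile normalization, with no filter, with the other pseudocount or with the replicate block. Rfx5 shares exon sequence with the antisense gene B230398E01Rik.

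Irf1, an activator that interferon gamma induces, had 4.65, 4.15 and 4.56 FPKM in rPPAA18C6@Dox libraries, against 5.10, 4.95 and 5.32 FPKM in PBS libraries. Its groups did not overlap either, and the estimate missed the threshold (log2 fold change -0.17, SE 0.0498, limma adjusted p = 0.0616). It passed with a mean of at least 5 FPKM required in either group (limma adjusted p = 0.0490). Irf1 met that filter through PBS cells alone, with means of 5.123 FPKM there and 4.455 FPKM in rPPAA18C6@Dox cells. In GENCODE vM21 Irf1 shares 135 exon bases with Gm17334 on the other strand. The highest regulators, Suz12 and Ezh2 of Polycomb repressive complex 2, which is known to silence class I genes in some human tumours, had log2 fold changes of -0.05 (adjusted p = 0.297) and -0.09 (adjusted p = 0.0522). Among 9 tested interferon receptors and kinases 0 passed in limma and 2 had an unadjusted p under 0.05 (26.2% of all tested genes), and the highest were Jak1 (-0.01, adjusted p = 0.887) and Ifngr2 (-0.07, adjusted p = 0.146).

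Of the chaperones and peptidases that serve class I loading, 2 of 15 rose and 0 fell, against 4.66% and 5.26% of all tested genes. At an unadjusted p under 0.05 there were 4 of 15, close to the 26.2% of all tested genes. The median log2 fold change was 0.03. Calr, calreticulin, which holds the heavy chain in the loading complex, had 543, 553 and 555 FPKM in rPPAA18C6@Dox libraries, against 481, 477 and 485 FPKM in PBS libraries (0.19, SE 0.0214, limma adjusted p = 0.000541). Canx, calnexin, which binds newly made heavy chains, had 245, 247 and 253 FPKM in rPPAA18C6@Dox libraries, against 232, 236 and 235 FPKM in PBS libraries (0.08, SE 0.0226, adjusted p = 0.0481). The Canx call was lost in each fit with 1 library left out (adjusted p 0.0564 to 0.119), with no filter, without the trend and with the replicate block. Pdia3, the disulphide isomerase bound to tapasin, had 330 to 343 FPKM in rPPAA18C6@Dox libraries, against 308 to 326 FPKM in PBS libraries (0.09, adjusted p = 0.0665). All 3 also serve glycoprotein folding at large.

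None of the 4 tested nonclassical or class I-like heavy chains passed in limma (0 of 4, against 9.93% of all tested genes). At an unadjusted p under 0.05 there were 0 of 4, against 26.2%, and the median log2 fold change was -0.04. Mr1, which shows vitamin metabolites, was at 12.7 to 13.2 FPKM in rPPAA18C6@Dox libraries, against 13.1 to 13.3 FPKM in PBS libraries, and Fcgrt, the neonatal Fc receptor, at 10.5 to 11.1 FPKM in rPPAA18C6@Dox libraries, against 11.1 to 11.7 FPKM in PBS libraries. H2-T23, which encodes Qa-1, was at 0.0205 to 0.0823 FPKM in rPPAA18C6@Dox libraries, against 0.0406 to 0.0614 FPKM in PBS libraries. Of 15 listed, 9 had no row under their symbols and were not analysed here. Among 8 constitutive catalytic subunits and proteasome activators 0 passed in limma, against 9.93% of all tested genes. None had an unadjusted p under 0.05, against 26.2%. Pomp, the assembly factor, was the highest at 204 to 216 FPKM in rPPAA18C6@Dox libraries, against 199 to 205 FPKM in PBS libraries.

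Other interferon-induced genes did not move in 1 direction: 2 of 12 tested rose and 1 fell, against 4.66% and 5.26% of all tested genes. At an unadjusted p under 0.05 there were 6 of 12, against 26.2%. Of 20 listed genes 18 had a row, and those under 1 FPKM in both groups were not tested. Of these, Ifi47, Gbp2 and Oasl2 had every rPPAA18C6@Dox library below every PBS library, and Xaf1 had every one above. The ratios of group means were 0.504 (Ifi47), 0.653 (Gbp2), 0.768 (Oasl2) and 1.18 (Xaf1). Such orders held for 18.7% (below) and 12.6% (above) of all tested genes, to which these low genes do not belong. The share over all 15726 listed genes was computed for the order above only, at 10.5%. Cxcl10, a chemokine for T cells, was at 175, 182 and 177 FPKM in rPPAA18C6@Dox libraries, against 279, 249 and 253 FPKM in PBS libraries (log2 fold change -0.54, SE 0.0399, limma adjusted p = 3.48e-05). Usp18, which restrains type I interferon signalling, was at 3.56, 3.93 and 3.74 FPKM in rPPAA18C6@Dox libraries, against 2.64, 2.98 and 3.06 FPKM in PBS libraries (0.29, SE 0.0570, adjusted p = 0.0128). Igtp, an interferon-induced GTPase, was at 1.18, 1.07 and 1.31 FPKM in rPPAA18C6@Dox libraries, against 0.806, 0.893 and 0.687 FPKM in PBS libraries (0.28, SE 0.0720, adjusted p = 0.0355), and its mean passed the filter in rPPAA18C6@Dox cells alone. The Igtp call was lost with 4 of the 6 libraries left out in turn (adjusted p up to 0.116), with no filter and with the replicate block. Igtp had 51 to 98 reads per library. The second highest of the list, Bst2, which tethers virus particles, had 0.06 (adjusted p = 0.228). Igtp, Cxcl10 and Usp18 share exon bases with Irgm2, Art3 and Gm44148 in GENCODE vM21.

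**Figure D4:**
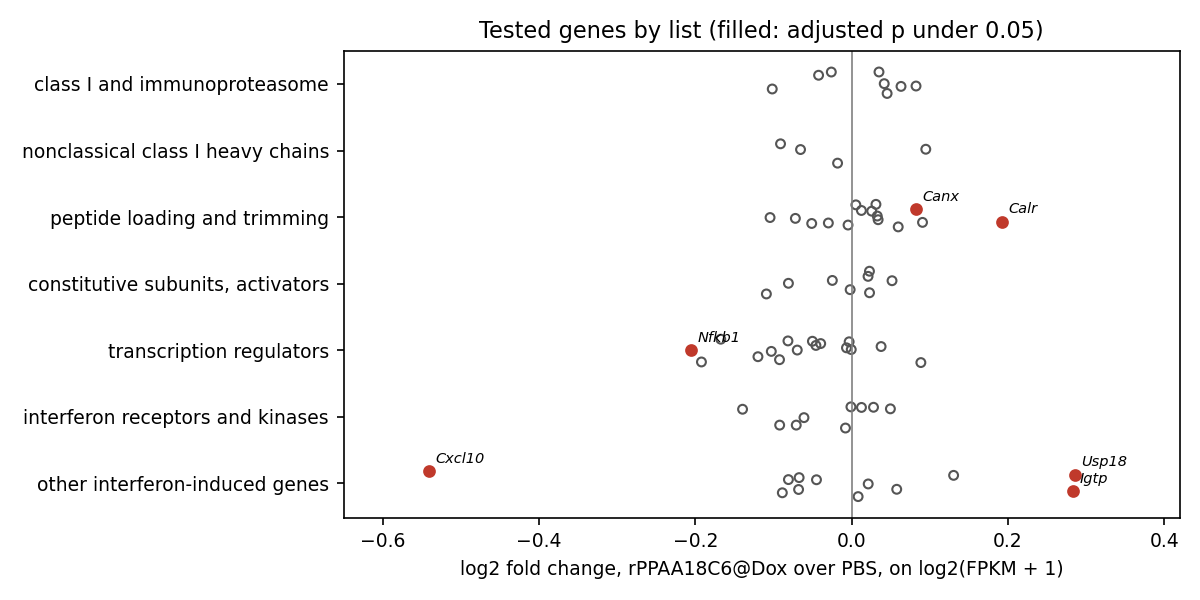
Log2 fold change (rPPAA18C6@Dox over PBS, on log2(FPKM + 1)) of each tested gene, 1 point per gene and 1 row per list, with vertical scatter for legibility only. Filled points passed an adjusted p under 0.05: none in the top row, and Calr, Canx, Nfkb1, Cxcl10, Usp18 and Igtp below it.

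Recovered depth ran from 36380462 to 37067116 reads per library. The cells carried the markers of their line, with Dct at 2141 to 2178 FPKM in rPPAA18C6@Dox libraries and 1835 to 1886 FPKM in PBS libraries, and 5 of 7 melanocyte markers rose, against 4.66% of all tested genes. These were Mitf (log2 fold change 0.30), Tyrp1 (0.29), Pmel (0.26), Dct (0.22) and Tyr (0.14), with limma adjusted p up to 0.00593. At an unadjusted p under 0.05 there were 6 of the 7, against 26.2% of all tested genes. Defining genes of antigen-presenting cells were near 0: Cd74 was at 0.0191 to 0.0953 FPKM in rPPAA18C6@Dox libraries and 0.0189 to 0.0385 FPKM in PBS libraries, and H2-Ab1 did not exceed 0.181 FPKM. The highest genes of that list, H2-DMb1 (log2 fold change -0.10, limma adjusted p = 0.436) and Batf3 (0.06, adjusted p = 0.802), did not pass. Of the 12 genes of that list 6 had a row, and these summed to 4.45 to 5.33 FPKM in rPPAA18C6@Dox libraries and 4.25 to 5.32 FPKM in PBS libraries. Of 16 leukocyte markers 2 were in the table and 14 were not analysed here. Cd68, of macrophages and lysosomes, had 1.61 to 1.72 FPKM in rPPAA18C6@Dox libraries and 1.22 to 1.34 FPKM in PBS libraries (0.23, adjusted p = 0.0311), a call lost with any 1 library left out, with the replicate block and with voom. Cd68 had 56 to 79 reads per library. Lyz2 was at 0.408 to 0.794 FPKM in rPPAA18C6@Dox libraries and 0.638 to 1.01 FPKM in PBS libraries.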

How the data were processed

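The authors deposited a table with a value for each gene in each library, taken here to be FPKM because of its numerical steps, since the header names no unit. A further column holds the authors' own p-value per gene. Per the submitters' processing notes the build is mm9. On aligner, counter, strand setting and filters nothing is given in the sources used here. For 15726 of 15726 genes a factor per gene turned all 6 FPKM values into whole reads within 0.01.

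Groups were compared on log2(FPKM + 1) by limma (version 3.58.1, R 4.3.3), two-sided, unpaired and with its variance trend. Genes whose mean reached 1 FPKM in either group were tested, and Benjamini-Hochberg adjusted p-values under 0.05 were called. It was tested on simulated data. Genes were named as all 10 members, a few genes fixed by name, and from each list those past the threshold and the 2 highest; 1 gene that this rule names is not reported here. The members and lists were chosen with earlier results of these data known. Alternatives were another pseudocount, filter, scaling or fit, a replicate block and each library left out. Reads are given for the low genes Psmb8 and Psmb9 and for some others, but not for every low gene.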

Additional observations from a re-analysis of the deposited data

How the results depend on the processing

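In the 14 alternative fits 0 of the 10 genes passed wherever they were tested. The smallest adjusted p was 0.132 among the 8 above the filter (B2m without rPPAA18C6@Dox replicate 1), and Psmb8 had 0.0701 with no filter. Of 109 refitted values of the 8 genes 107 kept their direction. B2m turned to -0.0144 with quantile normalization, and Nlrc5 ranged from -0.0841 to 0.0129 with 1 library left out. With 1 library left out Psmb5 ranged from -0.0437 to 0.0384, Psmb6 from -0.0270 to 0.0631, and the log2 ratio of Psmb10 to Psmb7 from -0.0240 to 0.124. The estimates of other genes kept their sign but moved by over 1.5 times: H2-K1 from 0.0118 to 0.0674, H2-D1 from 0.0172 to 0.0564, Tap1 from -0.0491 to -0.0036, Psmb10 from 0.0215 to 0.113, Tapbp from 0.0465 to 0.134. The cause of these turns and shifts was not tested. A pseudocount of 1 lowered the log2 ratio of Psmb8 to Psmb5 to 0.09, against 1.97 without it.

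Genes called in all were 681 with no filter (346 higher, 335 lower), 1636 with voom (703 higher, 933 lower), 1632 with voom and a 10-read minimum mean, a setting chosen after seeing the data, and 600 to 749 with 1 library left out. Of 64 tested genes in the 6 pathway lists, 6 were called, where 9.93% of all tested genes were. With voom 10 of 64 were called, where 15.3% of all tested genes were. With voom and the 10-read minimum there were 10 of 72, where 1632 of all 13310 tested genes were called. Same-numbered libraries did not deviate together over the tested genes (correlations -0.00238, 0.0549 and -0.0210). These values cannot exclude a shared origin that touches few genes, and the labels do not say whether there was one. With the replicate block 825 of 10680 genes were called in all, 0 of the 8 genes above the filter and 4 of the 64 list genes. Depth limits Psmb8 and Psmb9.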
